A study of Mus musculus with 6 samples.

Results

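The cells described here are chondrocytes of a mouse fracture callus that carry UMIs of Sfrp5, Fam180a or Sbsn. They were chosen from 6 droplet single-cell libraries by a rule on UMI counts, where a UMI (unique molecular identifier) counts 1 captured transcript. A barcode had to hold at least 5000 UMIs with at most 10% from mitochondrial genes. Ucma, Cnmd, Matn3 and Scrg1 together had to make up at least 0.2% of its UMIs, with at most 1 UMI each of Ptprc and Cdh5 (markers of blood and endothelial cells). It further needed fewer than 3 UMIs of Ihh, and at least 2 UMIs of Sfrp5, Fam180a and Sbsn summed, no fewer than its UMIs of Epyc and Clec3a. The rule found 1204 member cells among 46944 barcodes, of which 25592 passed the depth and mitochondrial conditions. Without the conditions on Ihh, Sfrp5, Fam180a, Sbsn, Epyc and Clec3a, 2343 barcodes counted as chondrocytes, and members were 51.4% of them. The other 1139 are called the remaining chondrocytes, and they comprise 582 cells with at least 3 Ihh UMIs, 405 Epyc/Clec3a cells, in which these genes outnumbered the trio, and 152 cells of neither kind.

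The study asked what the loss of Piezo1 in chondrocytes does to fracture healing, and the libraries were made from femoral callus 14 days after fracture. Controls (3 libraries) carry the label wt, while the methods describe mice with floxed Piezo1 alleles and no Cre. The conditional knockout group (cko, 3 libraries) is labelled Col2CreERT; Piezo3-/-, whereas the series' design text and the methods name Piezo1. Col2CreERT is a tamoxifen-inducible Cre under the control of a Col2a1 promoter, so that deletion is aimed at cells which use this promoter. The methods give 12-week-old male mice and tamoxifen at 75 mg per kg on 5 days. They name only the cko mice in the sentence on the first injection, 5 days after fracture, whereas other passages of the study name both groups as treated.

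A fracture callus heals largely through a cartilage template. Callus chondrocytes lay down collagen II and aggrecan, mature into hypertrophic cells that make collagen X and Indian hedgehog (Ihh), and give way to bone. Fibrocartilage is a tissue in which cartilage and fibrous matrix, including collagen I, are made together. Sfrp5 encodes a secreted frizzled-related protein that can bind WNT ligands. Its gene lies at chr19:42197971-42202252 on the minus strand (GRCm38). Fam180a (chr6:35312668-35326141, minus strand) encodes a small secreted protein of poorly known function. Sbsn (chr7:30751471-30756134, plus strand) encodes suprabasin, known from stratified epithelium. C1qtnf3 (chr15:10952332-10980150, plus strand), which was not part of the rule, encodes a secreted C1q/TNF-related protein also known as cartducin.

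Libraries differed in ways that precede any result. Members numbered 153 in control 1, 200 in control 2 and 191 in control 3, with 120 in cko 1, none in cko 2 and 540 in cko 3. The cko library 2 had no chondrocyte by these conditions among 6081 passing barcodes, which allows a share of up to 0.0493% (3 counts of that total). In that whole library Ucma had 5 UMIs and Sfrp5 had 8, against 143426 UMIs of the osteoblast gene Bglap. Comparisons of genotype within members therefore set 3 control libraries against 2 cko libraries. The cko library 3 held 58874 UMIs of Xist and 0 of the Y-linked genes Ddx3y and Eif2s3y, whereas the other 5 libraries held 7 to 12 UMIs of Xist and 5403 to 8412 of Ddx3y. Sex and genotype label cannot be told apart for that library. Members of both libraries numbered 1 were deeper, with medians of 39808 (control) and 43714 (cko) UMIs per cell against 17065, 11188 and 20003 in control 2, control 3 and cko 3. Summed member UMIs were 6206289, 3631299 and 2522207 in controls 1 to 3, and 5007035 and 11120471 in cko 1 and 3. Libraries shared few cell barcodes, at most 0.383% of the smaller library in any pair.

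**Figure D1:**
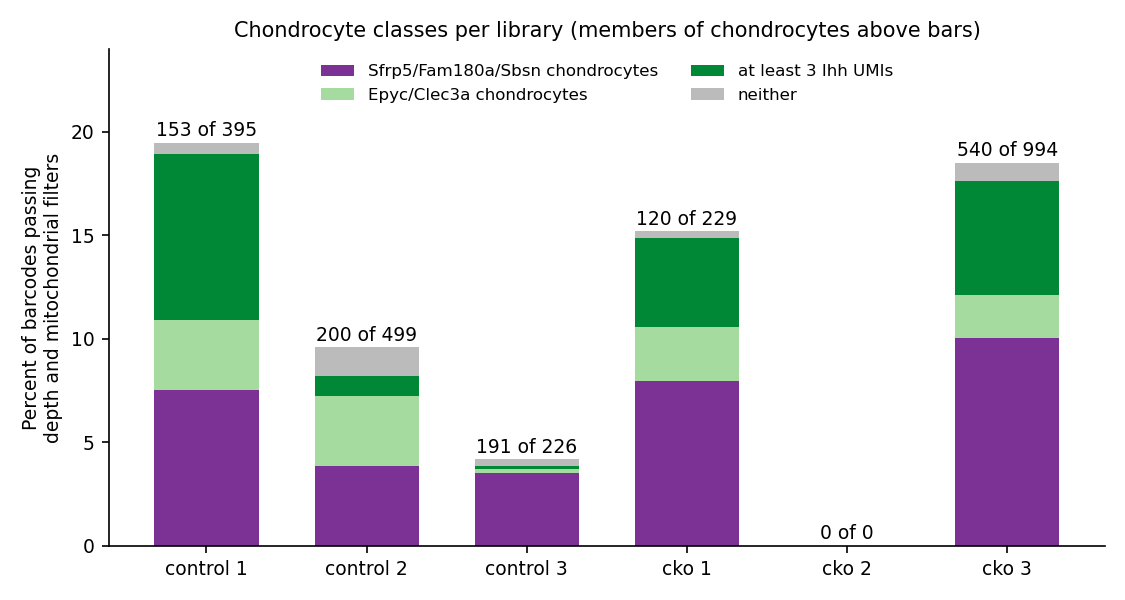
Chondrocyte classes as a percent of barcodes passing the depth and mitochondrial filters (y axis) in each of the 6 libraries (x axis), with the number of members and of chondrocytes above each bar. Members are the purple part, and cko 2 has an empty bar because no barcode met the chondrocyte conditions.

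The label under which these cells were proposed, Sfrp5 early fibrocartilage-like chondrocytes, was checked against their genes. Sfrp5 had a UMI in 568 of 1204 members (47.2%), Fam180a in 1079 (89.6%) and Sbsn in 939 (78.0%). Only 406 members had all 3, while 570 had 2 and 228 had 1. Since these genes chose the cells, their levels are a description. Sfrp5 stood at 184, 73.0 and 73.3 CPM (summed UMIs of the gene in members, scaled to 1e+06 summed UMIs in all) in controls 1 to 3, and at 252 and 177 in cko 1 and 3. Fam180a was at 184, 316 and 267 CPM in controls and 250 and 453 in cko. Sbsn was at 265, 225 and 354 CPM in controls and 184 and 248 in cko.

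With every barcode thinned to 5000 UMIs, Sfrp5 was seen in 30.7%, 17.5% and 22% of members of controls 1 to 3 and in 47.5% and 34.3% of those of cko 1 and 3. In Epyc/Clec3a cells of the same libraries it was seen in 14.7%, 2.26%, 30%, 7.69% and 16.2%, above members in control 3 only, which had 10 such cells. Cells with at least 3 Ihh UMIs had 7.36%, 4%, 13.8% and 16.9% in controls 1 and 2 and cko 1 and 3. The share in immune barcodes of the same 5 libraries, which should lack the gene, was 1.26%, 0.480%, 0.317%, 1.64% and 2.34%. Median depths before thinning were 8840 to 17888 UMIs in these immune barcodes. Endothelial barcodes, which should lack it too, held 41.6, 2.73, 1.32, 46.3 and 10.8 CPM of Sfrp5, below members of each library. Without thinning, Sfrp5 was seen in 60.1%, 25.5%, 32.5%, 67.5% and 52.2% of members in the same order. Fam180a did not mark members apart from cells with Ihh. After thinning it was seen in 51.6%, 63.0%, 63.3% and 75% of members of controls 1 and 2 and cko 1 and 3, and in 49.7%, 76.0%, 55.4% and 78.0% of cells with at least 3 Ihh UMIs. Sbsn was seen in 42.5% to 57.5% of members against 10.8% to 31.1% of the Ihh cells in those 4 libraries, and in 79.1% of members of control 3. Most Sbsn UMIs lay outside members in each of the 5 libraries. Members held 1643 of the 4987 in all barcodes of control 1, 818 of 2100 in control 2 and 893 of 6557 in control 3. In cko 1 and cko 3 they held 922 of 3402 and 2758 of 9018.

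C1qtnf3 was seen in 89.5%, 94.5%, 99.0%, 87.5% and 94.1% of thinned members of controls 1 to 3 and cko 1 and 3. Epyc/Clec3a cells had 82.4%, 96.0%, 90%, 79.5% and 91.9%, so members were lower in control 2. The level of C1qtnf3 was 2152, 2990 and 5783 CPM in members of controls and 1853 and 2101 in cko, above the 834, 2241, 2813, 951 and 1146 CPM of the remaining chondrocytes of the same libraries. Its median log2 ratio over those cells was 0.96, short of the limit of 1 used below. Immune barcodes of these 5 libraries held 189 to 290 CPM, and endothelial barcodes 121 to 563 CPM. Ucma, a small secreted cartilage protein that was part of the rule, stood at 567, 1495, 1049, 331 and 1456 CPM in members. After thinning it was seen in 60.13%, 82%, 67.02%, 43.33% and 80.19% of members. The remaining chondrocytes had 53.31%, 89.97%, 77.14%, 55.96% and 80.84%, so members were higher in control 1 only. Epyc/Clec3a cells (10 in control 3) had 79.41%, 94.92%, 100%, 71.79% and 89.19%, above members of each library. Ucma thus did not mark members apart from either class. Transcripts of collagen I and II were both present, Col2a1 at 31375 to 61063 CPM and Col1a1 at 9424 to 23776 CPM. These are shares of 3' UMIs, which do not need a correction for gene length. The word early, a stage, cannot be checked with 1 time point, and no Sfrp5 UMI was found in 636 members, so the cells are called Sfrp5/Fam180a/Sbsn cells or members here.

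**Figure D2:**
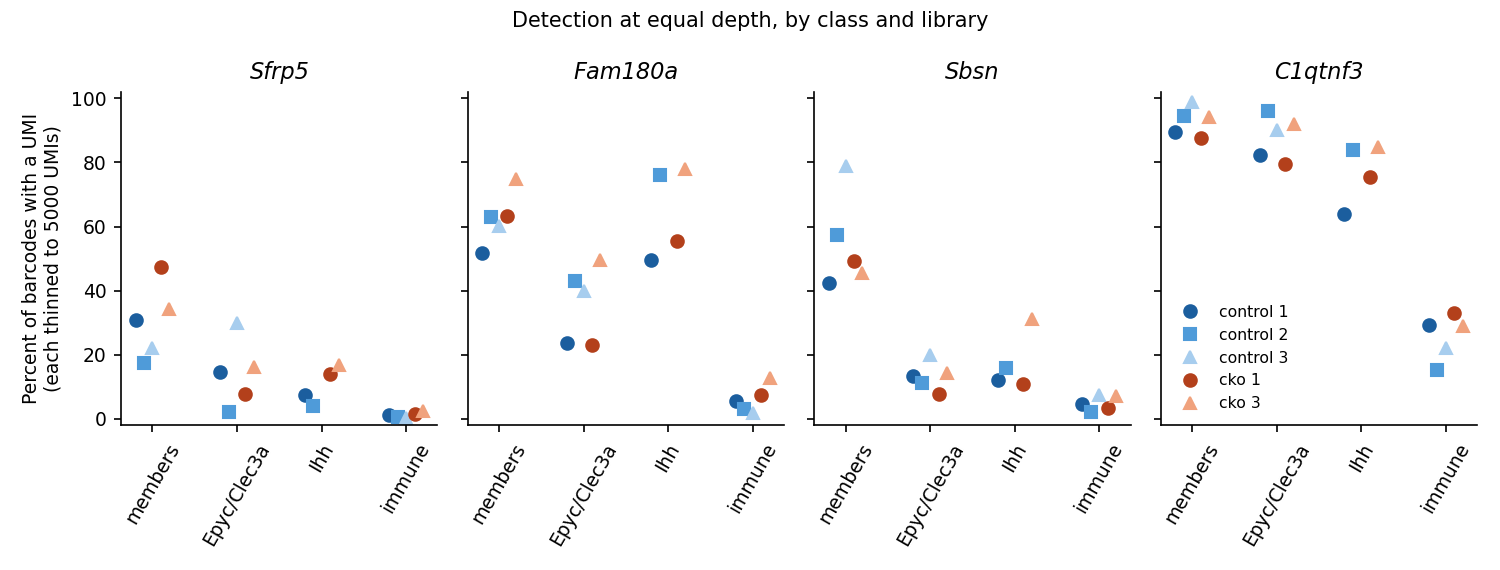
Percent of barcodes with at least 1 UMI of each gene after thinning to 5000 UMIs (y axis), for members, Epyc/Clec3a cells, cells with at least 3 Ihh UMIs and immune barcodes (x axis), with 1 point per library. Ihh cells of control 3 are left out (8 cells), and Fam180a is as frequent in Ihh cells as in members, whereas Sfrp5 and Sbsn are not.

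Many cells lay near the limits of the rule. Exactly 2 UMIs of Sfrp5, Fam180a and Sbsn admitted 87 members, and 82 chondrocytes lay outside with 1. In 39 members the sum equalled that of Epyc and Clec3a, and 36 cells missed by a single UMI. The chondrocyte genes made up 0.2% to 0.3% of UMIs in 222 members, and 331 barcodes with 0.1% to 0.2% met the other conditions. Ihh excluded 397 cells that met all else, 58 of them with exactly 3 UMIs, and 97 members had 2.

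Members varied among themselves within each library. In thinned members of control 1 the 10th percentile, median and 90th percentile of Col2a1 were 55.4, 263 and 443 UMIs of 5000. The same values in control 3 were 19, 98 and 312, the lowest of the 5 libraries, and in cko 3 they were 83.9, 247 and 443. Those of Col1a1 were 9, 35 and 113 UMIs in control 1, 48, 110 and 241 in control 3, and 9, 37 and 115 in cko 3. C1qtnf3 ran from 1 UMI at the 10th percentile to 30.1 at the 90th in control 2. By the medians, members of control 3 held the most Col1a1 and the least Col2a1 per 5000 UMIs of the 5 libraries.

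Members were next set against the remaining chondrocytes of the same library, to show which genes went along with the rule. Since expression chose the cells, these ratios carry no test. They are log2 ratios of CPM with 5 CPM added, and a gene is counted as higher or lower when the median over 5 libraries passed 1 in size and all 5 had the same sign. Among 4553 genes with at least 30 CPM in the higher class, 49 were higher (1.08%) and 48 lower (1.05%), and the median over all of them was 0.09. Because the rule sends Ihh cells to the remaining chondrocytes, genes that accompany Ihh are lower in members partly by construction. The plot of ranked ratios shows the 15 highest and the 10 lowest genes.

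Inhba, Postn, Pamr1, Angptl1 and Igf1 led the higher side, and all 5 encode secreted proteins. Inhba, which encodes the subunit of activin A, was at 371, 336, 635, 418 and 169 CPM in members (controls 1 to 3, then cko 1 and 3), against 75.7, 97.2, 247, 68.7 and 65.8 CPM in the remaining cells. Members were above the remaining cells in each library, with a median log2 ratio of 1.74 and a range of 1.30 to 2.52. Postn (periostin, a matrix protein of periosteum and ligament) was at 1281, 1401, 2660, 1148 and 428 CPM in members against 382, 443, 997, 352 and 184 CPM, a median log2 ratio of 1.65. Igf1, a growth factor for chondrocytes, was at 256, 516, 520, 210 and 68.5 CPM in members against 77.4, 170, 226, 62.9 and 24.1 CPM, a median log2 ratio of 1.57. Its level in members of cko 3 was below that of the remaining cells in 3 other libraries.

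Tnn (tenascin-W) was at 593, 462, 1356, 541 and 187 CPM in members against 144, 163, 519, 169 and 68.7 CPM, with all 5 log2 ratios between 1.38 and 2.00. Pamr1 had a median log2 ratio of 1.61 and Itgbl1, an integrin-beta-like secreted protein, one of 1.34. Both were past 1 in each of the 5 libraries. Angptl1 (1.59), Abi3bp (1.5) and Medag (1.35) were less even, with lowest ratios of 0.25, 0.80 and 0.57. The other named genes were Hhipl1 (1.32), the pyrophosphate transporter Ank (1.30), the BMP-modulating matrix protein Smoc1 (1.26), Ssc5d (1.25), the nuclear envelope gene Syne1 (1.23) and Crip1 (1.22). With Ihh cells removed from the reference, Itgbl1 (0.96), Hhipl1 (0.82), Smoc1 (0.73) and Syne1 (0.90) fell short of 1, and the other 11 of these 15 genes still counted as higher.

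Aldh1a3 and Col10a1 led the lower side. Aldh1a3, an enzyme of retinoic acid synthesis, was at 24, 5.51, 9.52, 14 and 33.1 CPM in members against 255, 80.7, 18.3, 206 and 168 CPM in the remaining cells, a median log2 ratio of -3.03. The difference was smallest in control 3, where only 35 remaining cells entered. Col10a1, the collagen of hypertrophic cartilage, was at 1549, 1648, 385, 1186 and 1721 CPM in members against 14836, 5472, 4496, 7010 and 7257 CPM, a median log2 ratio of -2.56. Immune barcodes of the same libraries, which should lack it, held 1348, 439, 15.3, 908 and 1624 CPM of Col10a1, and endothelial barcodes 3365, 192, 18.1, 2228 and 1606 CPM. Members lay below the endothelial level in control 1 and cko 1, near both levels in cko 3 and above both in controls 2 and 3. Cdkn1c, which encodes the cell-cycle inhibitor p57, was at 153, 122, 76.1, 124 and 307 CPM against 592, 269, 352, 602 and 793 CPM, a median log2 ratio of -1.91.

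Ddit4l, an inhibitor of mTOR signalling, had a median log2 ratio of -1.95, and Hpgd, which breaks down prostaglandins, one of -1.80. Irx5 (-1.64), the noncoding Gm4258 (-1.63), Wnk4 (-1.62), Bmp2 (-1.58) and Il17b (-1.56) followed. With Ihh cells removed from the reference, Il17b (-1.09) alone of these 10 genes still counted as lower. Aldh1a3, Gm4258 and Wnk4 were then below the level needed to be counted. Aldh1a3 then stood at -0.08, Col10a1 at -0.34, Ddit4l at -0.15, Cdkn1c at -0.49 and Hpgd at -0.13. Gm4258 (-0.24), Wnk4 (-0.28), Irx5 (0.05) and Bmp2 (0.04) were likewise near 0.

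**Figure D3:**
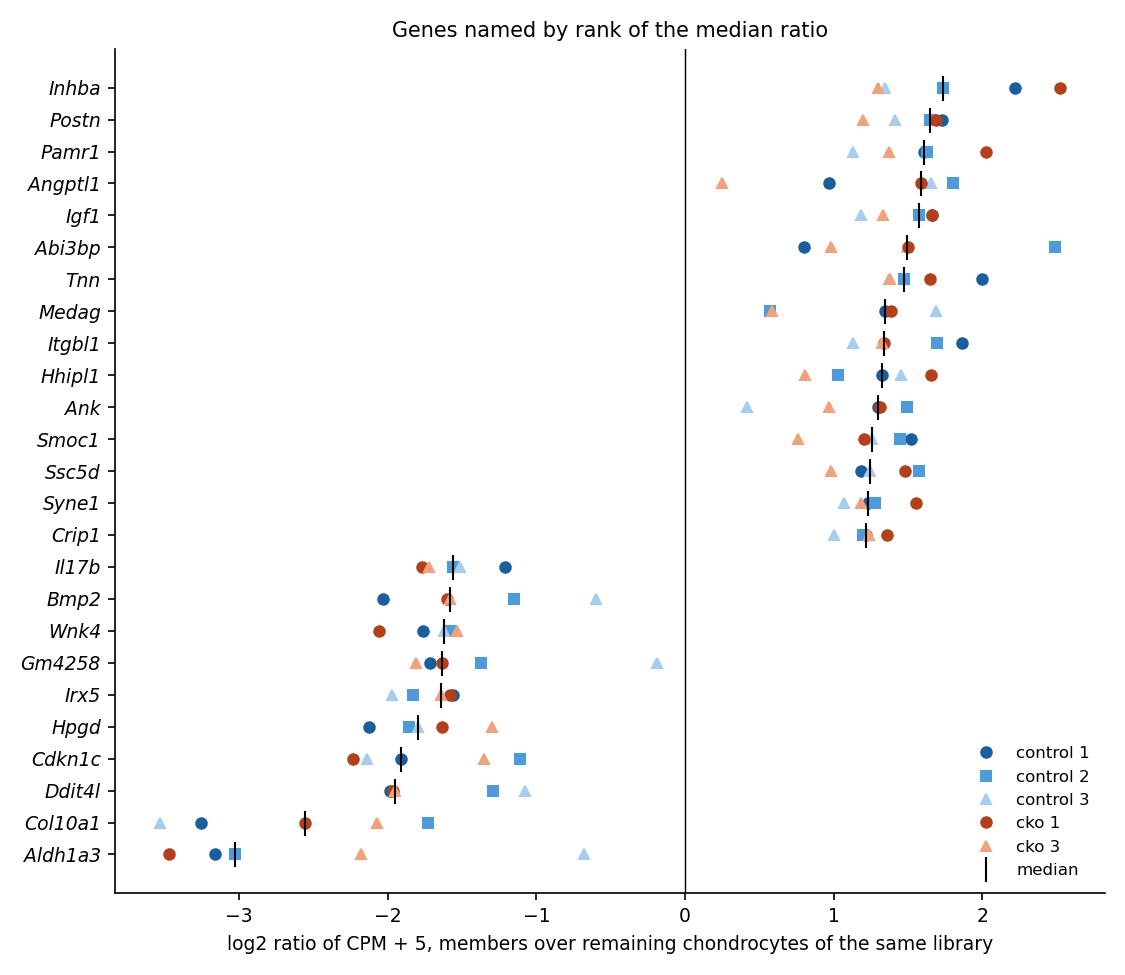
Log2 ratio of members over remaining chondrocytes of the same library (x axis, CPM with 5 added) for the 25 genes named by rank (y axis), with 1 point per library and a bar at the median. All points of a gene fall on the same side of 0, because this was a condition for naming it.

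Most genes of the fibrous matrix list were higher in members of every library. Of 26 genes listed, 22 reached the level needed, 6 counted as higher (Postn, Aspn, Ogn, Col5a1, Tnc and Cilp) and 0 as lower. Their median log2 ratio was 0.71 against 0.09 for all genes, and 19 of 22 were higher in all 5 libraries, as were 1324 of the 4553 genes. Aspn (asporin) was at 680, 662, 807, 419 and 344 CPM in members, a median log2 ratio of 1.16. Ogn (osteoglycin) was at 411, 561, 423, 348 and 229 CPM, a median log2 ratio of 1.12. Col1a1 was at 10440, 13055, 23776, 13642 and 9424 CPM in members against 4883, 5412, 17637, 7533 and 6104 CPM, a log2 ratio of 0.86 that missed the size asked for. Col3a1 (0.94) and Col12a1 (0.94), which accompanies collagen I fibrils, were like it, and the ratios of Fn1 (fibronectin) had both signs. Macrophage markers summed to 118, 173, 286, 235 and 337 CPM in members against 109, 157, 119, 153 and 261 CPM in the remaining cells. Osteoclast markers summed to 167, 261, 479, 146 and 321 CPM against 106, 144, 204, 111 and 293 CPM. Sums of tendon, neutrophil, endothelial and pericyte markers differed in both directions among libraries. The part of such cells in the fibrous list was not tested.

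Against Epyc/Clec3a cells alone, Postn, Aspn and Ogn were also higher: the median log2 ratios were 1.41, 1.49 and 1.08, each positive in 5 of 5 libraries. In that contrast 61 of 4552 genes were higher (1.34%) and 8 lower (0.176%). Against Ihh cells, in the 4 libraries with at least 10 of them, 117 of 4652 genes were higher (2.52%) and 101 lower (2.17%). Immune barcodes held 2097 to 7488 CPM of Col1a1 in the 5 libraries, below members in each. Endothelial barcodes held 8030, 1426, 3732, 8090 and 4272 CPM, also below members, but above the remaining chondrocytes in control 1 and cko 1. The part of free RNA in the collagen I difference was not tested.

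Most cartilage matrix genes were lower in members of every library, few of them by the size asked for. Of 26 listed, 5 belonged to the rule and 21 were compared. Of these 0 counted as higher and 3 as lower, namely Matn1, Chad and Snorc, with a median log2 ratio of -0.30. In all 5 libraries 14 of the 21 were lower and 3 higher, beside 423 and 1324 of the 4553 genes. Col2a1 was at 52721, 42225, 31375, 61063 and 49410 CPM in members against 74232, 73849, 47727, 78385 and 64726 CPM in the remaining cells, a median log2 ratio of -0.49 with all 5 negative. Acan, the proteoglycan aggrecan, had -0.18. Snorc, a chondrocyte proteoglycan, was at 3262, 2863, 1858, 3468 and 5929 CPM in members, a median log2 ratio of -1.02. Chad (chondroadherin) had -1.29 and Matn1 (matrilin-1) -1.49. Collagen VI went the other way, with 0.72 for Col6a1 and 0.54 for Col6a2, both positive in 5 of 5 libraries.

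Among 17 chondrocyte transcription factors compared, 0 counted as higher and 2 as lower, Mef2c (-1.38) and Foxa3 (-1.02), both known for their part in hypertrophy. With Ihh cells in the reference, genes that accompany Ihh are lower in members partly by construction. Sox9, the factor needed for a chondrocyte's identity, was at 879, 714, 843, 1071 and 508 CPM in members, a median log2 ratio of -0.18. Sox5 (0.42), Sox6 (0.29) and Runx1 (0.52) were positive in 5 of 5 libraries, and Runx2 (-0.54) was negative in all 5.

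Of 16 hypertrophy genes compared, 1 counted as higher (Ank) and 6 as lower (Col10a1, Cdkn1c, Pank1, Mef2c, Panx3 and Pth1r). Since the rule sends Ihh cells to the reference, such genes are lower in members partly by construction. With Ihh cells removed from the reference, 9 genes of all compared counted as lower instead of 48. Col10a1 (-0.34) and Cdkn1c (-0.49) were then not among them. Pth1r, the receptor for PTHrP, was at 964, 444, 662, 1104 and 1171 CPM in members, a median log2 ratio of -1.04. Ibsp (-0.63) and Alpl (-0.76), a mineralization enzyme, were negative in all 5 libraries. Spp1 (osteopontin) had a median ratio of -0.01 with both signs among the libraries. Rbp4, which is on the same list, was higher in all 5, with a median log2 ratio of 0.67.

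Of 11 resting zone and superficial genes compared, 3 counted as higher (Abi3bp, Dkk3 and Creb5) and 0 as lower, with a median log2 ratio of 0.96. Creb5, a factor of superficial articular chondrocytes, was at 36.3, 66.6, 19.0, 68.7 and 51.5 CPM in members, a median log2 ratio of 1.17. Wif1, a WNT inhibitor, was higher in 4 of 5 libraries (1.43). Pthlh, the PTHrP gene of resting cells, was barely detected, at 1.98 to 3.20 CPM, and Prg4 (lubricin) stood at 11.8 to 34.6 CPM.

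**Figure D4:**
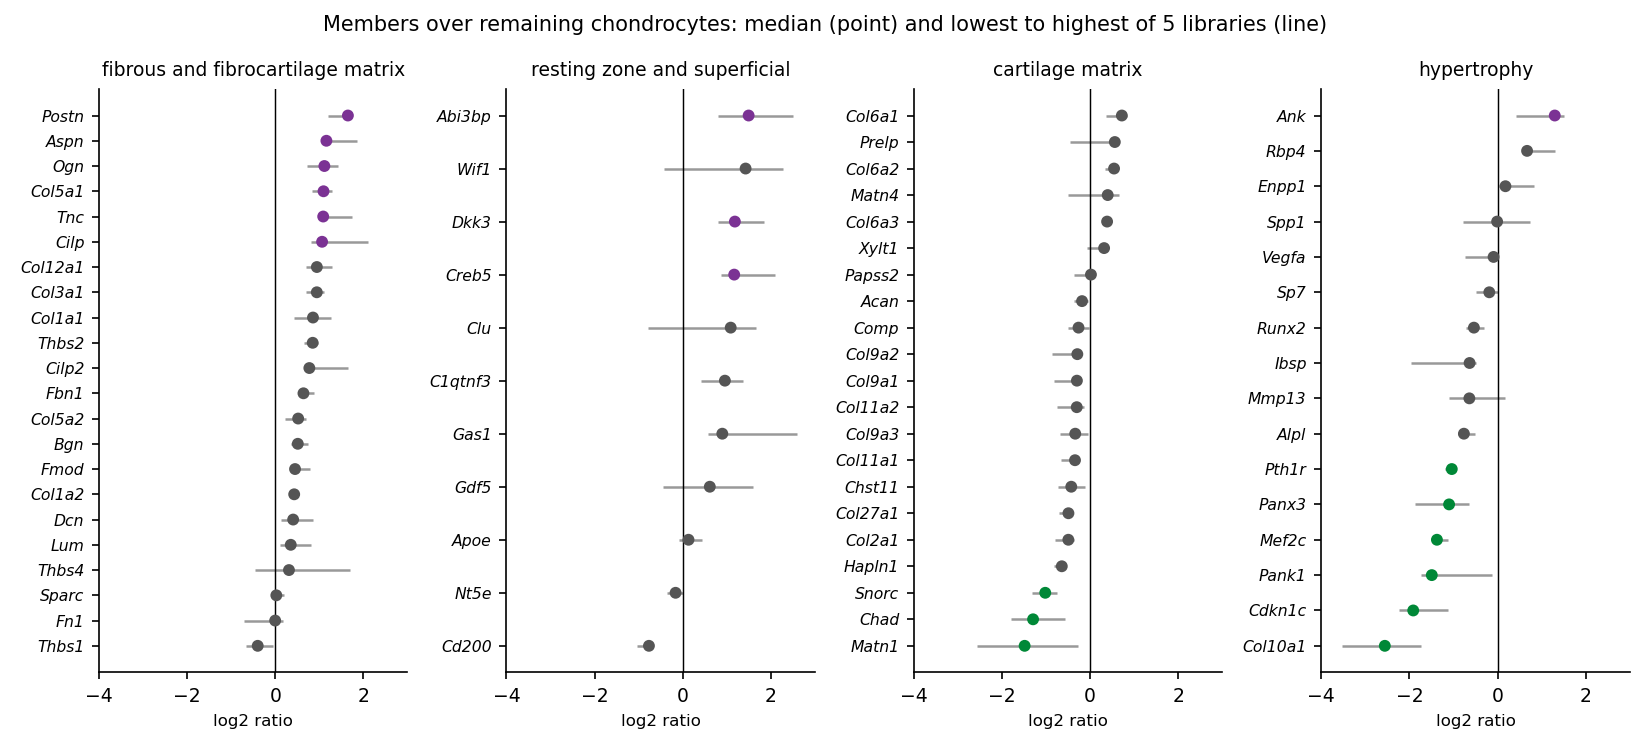
Median log2 ratio of members over remaining chondrocytes (points, x axis) with the lowest and highest of 5 libraries (lines) for genes of 4 lists (y axis). Purple and green points counted as higher or lower, 6 and 0 of 22 in the fibrous list, 3 and 0 of 11 in the resting zone list, 0 and 3 of 21 in the cartilage list, and 1 and 6 of 16 in the hypertrophy list.

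In the WNT pathway, a list of secreted WNT modulators held 13 genes besides Sfrp5, not all of them antagonists. Of these 4 were measured, and Dkk3 (1.18) and Cthrc1 (1.03) counted as higher. Neither the 10 WNT ligands and receptors nor the 4 WNT targets compared held a gene past the limits. Axin2, a general WNT target, was at 4.05 to 17.2 CPM in members, and Lef1 at 0.20 to 5.23 CPM.

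Among hedgehog genes, Ptch1, the receptor and a target of the pathway, was at 624, 327, 557, 553 and 281 CPM in members against 303, 232, 281, 311 and 152 CPM in the remaining cells. The ligand gene Ihh had at least 3 UMIs in 163 of 242, 50 of 299, 8 of 35, 65 of 109 and 296 of 454 of those cells. All 5 ratios were positive, with a median of 0.86. Gli1, another target, was at 38.3, 24, 27.8, 32.4 and 19.5 CPM against 11.6, 11, 6.86, 11 and 8.61 CPM, too low in the median library to be counted. Of 5 genes of this list compared, 0 counted as higher and 1 (Pth1r) as lower.

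Of 17 BMP genes, Chrdl2, an antagonist, counted as higher (1.07), and Bmp2 and the antagonist Nog (-1.30) as lower. With Ihh cells removed from the reference, Bmp2 stood at 0.04. Of 11 TGF-beta genes, Tgfbi counted as higher (1.21) and 0 as lower. Of 11 FGF and IGF genes, Igf1 and Igfbp6 (1.08) counted as higher. Of 11 genes compared on the list of matrix proteases and inhibitors, the protease inhibitor Timp2 counted as higher (1.08) and Timp3 (-1.0) as lower. Mia (-1.15), which is on this list but is neither a protease nor an inhibitor of one, also counted as lower.

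How many genes counted depended on how members were found. When every barcode was thinned to 5000 UMIs before the rule was applied, 18 genes counted instead of 97. When the same members were kept and their UMIs thinned, an alternative added after seeing the data, 91 did.

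Genotype was independent of the rule and was tested over libraries. The first question was whether members took another share of the chondrocytes. They were 38.7% (95% Wilson interval 34.1 to 43.6), 40.1% (35.9 to 44.4) and 84.5% (79.2 to 88.6) of chondrocytes in controls 1 to 3. In cko 1 and cko 3 they were 52.4% (45.9 to 58.8) and 54.3% (51.2 to 57.4). These intervals cover counting error only. The cko values lay between those of controls 2 and 3, so the groups overlapped. Means were 54.4% ± 26.1 (SD, n = 3) and 53.4% ± 1.36 (SD, n = 2), a difference of -1.08 percentage points with a two-sided exact permutation p = 1.0, where 3 against 2 libraries cannot go below 0.2. Without control 3 the difference was 14 points, with the groups apart and an exact permutation p = 0.333, the smallest that 2 against 2 libraries can give. Its sign also turned with control 3 kept, for example to 3.33 points with every barcode thinned to 5000 UMIs. Between libraries of the same number, it was 13.7 points for number 1 and -30.2 points for number 3. Of all passing barcodes, members were 7.55%, 3.85% and 3.53% in controls and 7.97%, 0% and 10.1% in cko libraries 1 to 3.

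Piezo1 (chr8:122481698-122551329, minus strand), which encodes a stretch-activated ion channel, was at 57.0, 47.4 and 46.0 CPM in members of controls and at 124 and 45.6 CPM in cko 1 and 3. The cko 1 value was above every control, and the cko 3 value just below all of them. Immune barcodes held 60.4, 34.5 and 54.3 CPM of Piezo1 in controls and 72.3 and 41.5 in cko 1 and 3, and endothelial barcodes 87.4, 105, 94.0, 144 and 62.1 CPM in the same order. In both kinds cko 1 was likewise the highest of these 5 libraries, and the endothelial level was above members in each. On the log2 scale cko was 0.79 higher (SE 0.36), and the adjusted p was 1.0 in edgeR's quasi-likelihood fit after Benjamini-Hochberg correction. In the remaining chondrocytes Piezo1 was at 74.5, 37.8 and 41.2 CPM in controls and at 135 and 56.9 CPM in cko. The reads come from the 3' end of transcripts, and which part of the gene is deleted is not given in the sources used here, so these values do not check the deletion.

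Across 12816 genes in summed member cells, 0 passed an adjusted p of 0.05 in either direction (0% of those tested). By the same edgeR test 327 genes had an unadjusted p under 0.05 (2.55%), and DESeq2 called 11 genes, 3 higher and 8 lower. The groups did not overlap for 1685 genes (13.1%). The direct test of a different genotype effect in members and remaining chondrocytes, an interaction with library as a block, called 0 of 13941 genes, with 490 at an unadjusted p under 0.05 (3.51%) and 0 by DESeq2. In the remaining chondrocytes themselves the edgeR test called 0 genes higher and 2 lower in cko, the immunoglobulin genes Igha and Igkc (0.0151% of 13225), with 259 at an unadjusted p under 0.05 (1.96%). The genes named below are the 5 with the lowest p in each direction, and none passed the threshold in this fit.

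The calls depended on how libraries of the same number were treated. Both libraries numbered 1 came from an earlier Cell Ranger version and had more UMIs per member cell, and those numbered 3 had a gene list of their own. With the library number as a block, edgeR called 29 of 12816 genes (0.226%), 15 higher and 14 lower in cko, among them 7 of the 10 named below. As cko 2 had no members, control 2 had no counterpart. The blocked differences therefore rest on 2 control and 2 cko libraries, those numbered 1 and 3, which leaves little to estimate spread from. DESeq2, which called 11 (0.0434% of 25370), passed 8 of the 10. The blocked calls held 4 of the 6 neutrophil markers, all higher (S100a8, S100a9, Retnlg and Camp), and 3 of the 4 pericyte markers, all lower (Acta2, Myh11 and Rgs5). They also held Cxcl2 and Lcn2 of the inflammation list, both higher, Sfrp2 of the secreted WNT modulators and Igfbp5 of the FGF and IGF list, both lower, the fibroblast marker Ly6a, lower, and the macrophage markers C1qa and C1qc, higher. They held no gene of the cartilage, fibrous matrix, hypertrophy, cell cycle or senescence lists. In control 2, which the block sets aside, neutrophil markers summed to 1042 CPM in members, between cko 1 (332) and cko 3 (1402). Its pericyte markers summed to 78.5 CPM, above cko 1 (25.0) and cko 3 (59.2). Unless a block is named, the genotype values below are from the fit without one.

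Complement genes of macrophages came first among those higher in cko. C1qc was at 6.12, 5.78 and 6.74 CPM in members of controls and 17.6 and 24.5 CPM in cko, 1.88 higher on the log2 scale (SE 0.31) with an edgeR adjusted p of 0.774, or 0.0378 with the block. C1qa (3.58 to 12.4 against 31.4 and 33.8 CPM) and C1qb (10.5 to 15.9 against 29.4 and 40.5 CPM) did not overlap between groups either. With the block C1qa had an edgeR adjusted p of 0.035, and C1qb, at 0.0578, did not pass. The 8 macrophage markers summed to 118, 173 and 286 CPM in members of controls and to 235 and 337 CPM in cko, with Lyz2 the most abundant gene and none at 0. In immune barcodes C1qc stood at 799, 365 and 439 CPM in controls and 553 and 677 in cko 1 and 3. Without the barcodes of highest Scrublet doublet score, which took away 52 of 1204 members, 28 of them in cko 3, the log2 fold changes were 1.33 for C1qc, 1.27 for C1qa and 0.91 for C1qb. Another alternative left out barcodes with any Ptprc UMI or at least 10 UMIs of C1qa, C1qb, C1qc, Lyz2, S100a8 and S100a9 summed, so that these genes' own UMIs chose what stayed. It kept 522 members, 116, 65 and 169 in controls 1 to 3 and 46 and 126 in cko 1 and 3, and the log2 fold change was then -0.05 for C1qb and 1.32 for C1qa, with C1qc too low to be tested. The part of macrophage RNA beyond these values was not tested.

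Cytl1, a secreted protein made by chondrocytes, was at 49.6, 26.2 and 12.7 CPM in controls and 108 and 118 CPM in cko, with a log2 fold change of 2.02 (SE 0.45) and an adjusted p of 1.0 by edgeR, or 0.035 with the block. Cxcl12, a chemokine, was at 8.86, 11.3 and 10.3 CPM in controls and 40.1 and 18.1 in cko. For Cytl1 the interaction was 1.10 (SE 0.20), with an adjusted p of 0.213 by edgeR.

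Immunoglobulin genes came first among those lower in cko. Igkc had 91, 122 and 34 UMIs in members of controls 1 to 3 and 0 and 9 UMIs in cko 1 and 3. Igha had 91, 68 and 15 UMIs in controls and 2 and 3 in cko. With the block each had an edgeR adjusted p of 0.000799. In the remaining chondrocytes both genes passed the threshold without a block, with log2 fold changes of -5.42 for Igkc (edgeR adjusted p = 0.0109) and -5.31 for Igha (edgeR adjusted p = 0.00815). Immune barcodes differed in the same way: Igkc was at 866, 1155 and 521 CPM in controls, at 3.09 and 1.28 CPM in cko 1 and 3, and at 447 CPM in cko 2. Lymphocyte markers summed to 0.40 to 3.30 CPM in members, with Ms4a1 at 0 in all 5 libraries. Without the barcodes of highest doublet score the log2 fold change of Igkc was -5.03, beside -5.12 with them. The part of free RNA was not tested.

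Igfbp5, an IGF-binding protein, was at 181, 75.2 and 115 CPM in controls and 35.4 and 14.9 CPM in cko, a log2 difference of -2.26 (SE 0.46) with an edgeR adjusted p of 1.0. The adjusted p was 0.000382 with the block, 0.000272 by DESeq2 and 0.0204 by edgeR without barcodes holding immune UMIs, the alternative that kept 522 members. Col15a1 was at 104, 71.6 and 108 CPM in controls against 36.1 and 30.1 in cko, and the fibrillin gene Fbn2 at 92.0, 173 and 178 CPM against 49.9 and 28.4. The groups did not overlap for any of these 3 genes, as for 13.1% of all genes tested. Col15a1 had an adjusted p of 0.0111 by edgeR with the block and 0.0294 by DESeq2, and Fbn2 of 0.072 and 0.00286. Pericyte markers, of which Acta2 was the most abundant, summed to 163, 78.5 and 287 CPM in controls and 25.0 and 59.2 in cko.

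**Figure D5:**
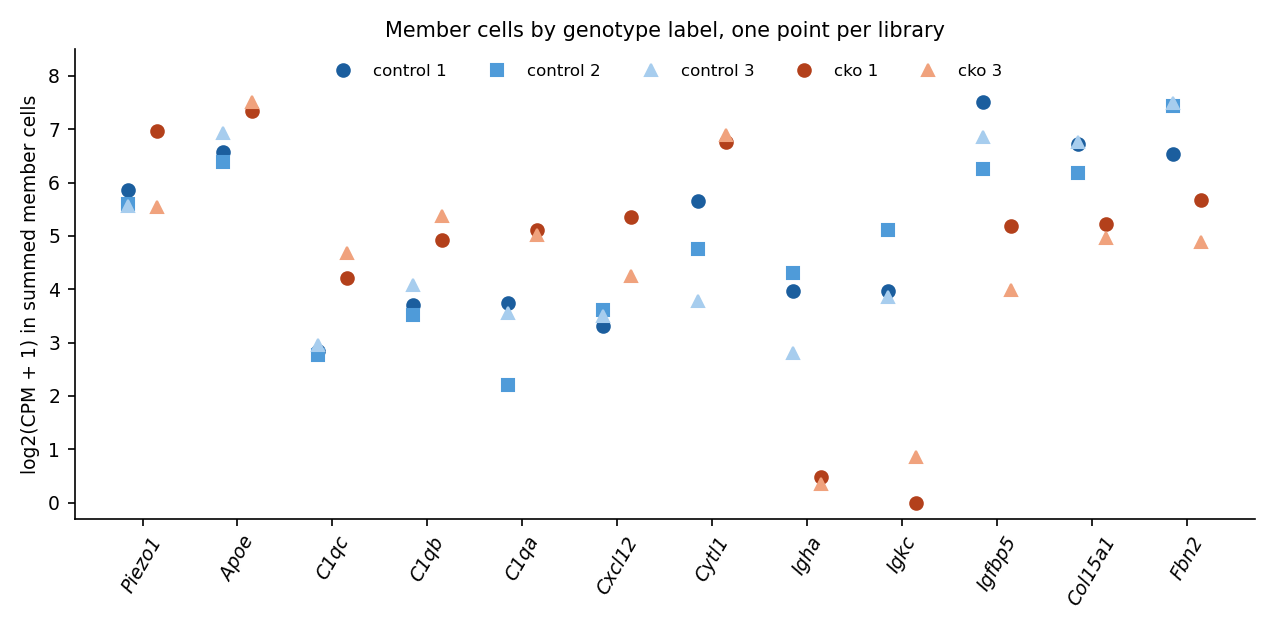
Level in summed member cells as log2(CPM + 1) (y axis) of Piezo1, Apoe and the 10 genes with the lowest p of the genotype test (x axis), with 1 point per library, controls in blue and cko in orange. Groups do not overlap for the 10 genes or for Apoe, as for 13.1% of all genes tested, and the cko 1 point of Piezo1 stands above the others.

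Apoe, the apolipoprotein on which the study centres, was at 93.6, 82.6 and 121 CPM in members of controls and 161 and 183 CPM in cko. The groups did not overlap, as for 13.1% of all 12816 genes tested, and the log2 fold change was 0.88 (SE 0.30, unadjusted p = 0.0164, adjusted p = 1.0 by edgeR). Immune barcodes held far more Apoe, 5931, 3005 and 4534 CPM in controls and 4203 and 4429 in cko. Endothelial barcodes held 241, 288 and 312 CPM in controls and 240 and 251 in cko, also above members of each library. The log2 fold change of Apoe was 0.56 without the barcodes of highest doublet score and 0.65 in the 522 members left without immune UMIs. The part of macrophage and free RNA beyond these values was not tested. Of 20 genes on the senescence list, 12 had a positive fold change and 2 an unadjusted p under 0.05, with a median of 0.05. Over all 12816 genes, 6378 had a positive fold change and 2.55% an unadjusted p under 0.05.

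Cell cycle genes were lower in sign in cko members, and 0 of them passed the adjusted threshold. Of 20 listed genes 0 had a positive fold change, as against 6378 of all 12816, and the median was -1.29 on the log2 scale, and 5 had an unadjusted p under 0.05. Mki67, a proliferation marker, was at 17.2, 69.4 and 35.7 CPM in controls and 6.79 and 16.8 in cko. Top2a was at 15.3, 93.1 and 53.9 CPM in controls and 8.99 and 17.0 in cko. Control 1, whose member cells were among the deeper ones, was close to cko 3 in both, and for Top2a the groups overlapped.

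In the fit without a block, no list held a gene past the genotype threshold. With the block, Sfrp2 of the secreted WNT modulators (log2 fold change -1.83, edgeR adjusted p of 0.0128) and Igfbp5 of the FGF and IGF list passed it. Cxcl2 and Lcn2 of the inflammation list passed as well, with the cell type markers named above for the blocked calls. For comparison with the lists that follow, 6378 of all 12816 genes had a positive fold change and 2.55% an unadjusted p under 0.05 by edgeR. Of 26 fibrous matrix genes, 5 had a positive fold change, 5 had an unadjusted p under 0.05, and the median was -0.35. Fibroblast, tendon and pericyte markers had negative fold changes too, with 0 of 7, 0 of 5 and 0 of 4 positive. Their medians were -0.71, -0.30 and -1.81. Macrophage, neutrophil and endothelial markers went the other way, with 8 of 8, 6 of 6 and 3 of 4 positive. The medians of these were 0.82, 0.98 and 0.28. The part of any of these cell types in the fibrous list was not tested. Postn (log2 fold change -1.15), Tnc (-1.34) and Igf1 (-1.61) were lower in both cko libraries than in every control, none of them past the adjusted threshold. Of 21 cartilage matrix genes 16 had a positive fold change, with a median of 0.26. Of 19 hypertrophy genes 16 were positive, with a median of 0.40 and 0 at an unadjusted p under 0.05. Osteoblast markers had the same sign, with 6 of 7 positive and a median of 1.12. Their part in the hypertrophy list was not tested. C1qtnf3 had a log2 fold change of -0.80 (SE 0.48) without overlap of the groups and an adjusted p of 1.0 by edgeR. Groups without overlap, as for Postn, Tnc, Igf1 and C1qtnf3, were found for 13.1% of all genes tested.

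Markers of other cell types were present in members, at levels that differed between libraries. Neutrophil markers, led by S100a9, summed to 72.7, 1042 and 341 CPM in members of controls and 332 and 1402 in cko 1 and 3. Erythroid markers, led by Hbb-bs, summed to 0.48, 16.2 and 1304 CPM in controls and 6.19 and 200 in cko. Endothelial markers summed to 16.7 to 44.0 CPM and skeletal muscle markers to 12.1 to 15 CPM. Tendon markers were led by Tnmd, at 41.7, 188, 107, 45.1 and 137 CPM. The osteoclast gene Ctsk stood at 106 to 270 CPM. Osteoblast markers summed to 9661 to 23862 CPM, nearly all of it Col1a1, and fibroblast markers to 2627 to 9797 CPM, nearly all Col3a1. The part of doublets and free RNA in these sums was not tested.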

How the data were processed

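The deposited matrices hold raw UMI counts per gene and barcode, which the authors made with Cell Ranger (versions 6.1.1 for the libraries numbered 1 and 6.1.2 for the rest, per the file headers) on GRCm38; the study's own filters and clusters were not used here. Libraries numbered 3 list 55357 genes and the others 55450, so 52081 shared genes were kept, and libraries held 57626530 to 103784364 UMIs in 3482 to 11447 barcodes. Members were found by the rule, and their counts were summed per library. Genotype was tested with edgeR's quasi-likelihood fit (version 4.0.16, genes kept by filterByExpr, TMM factors, Benjamini-Hochberg correction) and, as an alternative, DESeq2 (1.42.0), in R 4.3.3. Shares were tested by exact permutation with scipy 1.17.1. Doublets were not removed; an alternative left out barcodes with the highest Scrublet scores (scanpy 1.11.5), since its own threshold called 0 barcodes in 4 libraries. Immune barcodes had at least 2 Ptprc UMIs. The labels speak of callus taken from each mouse, whereas the study states its number of mice in different ways, so n counts libraries. Members, gene lists and tests were chosen with earlier results of these data known. Genes were named as those of the rule, Piezo1, the 15 highest and 10 lowest median ratios with 1 sign in every library, the 5 lowest p per direction where fewer than 3 genes passed, and list members of high level or large change. Tests were checked on simulated data, in which the genotype test missed nearly all changes of the smallest size tried and also called some unchanged genes. Coordinates are from GENCODE M21.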

Additional observations from a re-analysis of the deposited data

How the results depend on the processing

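The difference in the members' share of chondrocytes, -1.08 percentage points, ranged from -8.93 to 14 with 1 library left out. It was 3.33 with barcodes thinned to 5000 UMIs, 0.185 with at least 3 UMIs of Sfrp5, Fam180a and Sbsn, 4.37 with barcodes holding immune UMIs left out, 9.23 with Ihh limited in the denominator too, 1.04 of all passing barcodes and 13.0 without replicate 3 of both groups. The exact permutation p was 0.8 or 1.0 wherever no control or cko library with members was left out, and 2 against 2 libraries cannot go below 0.333. The 0 genes called between genotypes became 11 by DESeq2, 81 without a filter on low counts, 1 without barcodes holding immune UMIs, 6 without replicate 3 of both groups and 0 to 5 with 1 library left out. The interaction called 43 genes without the filter, 5 with Ihh cells removed from the reference, 39 without replicate 3 of both groups and 0 to 14 with 1 library left out. Of 169 values of the 10 genes named for genotype, 28 passed the threshold under an alternative and 1, C1qb at -0.046 without immune UMIs, changed sign. Genes counted against the remaining chondrocytes, 97, became 18 when thinning came before the rule and 46 with chondrocyte genes at 0.5% or more. They became 44 without Ihh cells, and 86 to 118 when 1 library was left out. Irx5 (0.054) and Bmp2 (0.040) changed sign without Ihh cells. There 9 of the 10 lower genes lost their count, among them Aldh1a3, Gm4258 and Wnk4, which fell below the level needed. The causes of these shifts were not tested. Libraries of the same number share a Cell Ranger version and a gene list, though the labels do not call a number a batch. Deviations of same-numbered libraries correlated at 0.45 and 0.28, and those of control 2 and cko 3 at 0.20; with 2 cko libraries each value for cko 3 is minus that for cko 1, so these do not show pairing. With the replicate number as a block, which leaves control 2 without a counterpart, edgeR called 29 genes and the share differed by -8.26 points. An arm left with 1 library was assumed to vary like the other group.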

Other observations

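Some gene groups not described above held no gene that counted as higher or lower. Of 24 genes of secretion and the response to unfolded proteins, 17 of glycolysis and hypoxia and 19 of dissociation and immediate early response, 0 counted as higher or lower, with median log2 ratios of 0.03, 0.07 and 0.14 beside 0.09 for all genes. Of 17 mechanosensing genes compared, 0 counted, with a median of 0.21. Pkd1, which encodes polycystin-1, was nearest, with a median log2 ratio of 0.83 and levels of 245, 192, 264, 237 and 113 CPM in members of controls 1 to 3 and cko 1 and 3. Piezo2 was at 39.0, 31.4 and 27.8 CPM in members of controls and 25.8 and 15.3 in cko, and the calcium channel gene Trpv4 at 257, 148 and 254 CPM and 221 and 188. Of 11 inflammation genes compared 0 counted, with a median of 0.42. Saa3, an acute-phase gene, differed among libraries of each group, at 0.645, 11.6 and 323 CPM in controls and 182 and 0.360 CPM in cko 1 and 3. Mmp3 was likewise uneven, at 0.322, 22 and 68.6 CPM in controls and 33.2 and 0.450 in cko.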
